A study of Rattus norvegicus with 36 samples.

Results

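The immediate early genes Fos, Fosb, Junb, Jun, Egr1, Egr2, Nr4a1, Arc and Dusp1 were followed in the nucleus accumbens of 9 rats. These 9 genes were taken by their Ensembl identifiers out of 32402 listed genes, by a rule that uses no measured value, although earlier results of these data were known when they were chosen. All 9 were found, and all 9 passed the low-count filter that left 15555 genes for testing. The pairing of identifier and name came with the list. The reference table of gene names held no Ensembl identifiers, so that pairing was not checked against it.

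The rats were Sprague-Dawley animals aged 8 weeks, trained in cocaine conditioned place preference, in which an animal comes to seek the compartment where it received the drug. Saline rats (n = 3) received 4 injections of physiological serum, 15 days of withdrawal and a final serum injection. CPPE rats (n = 3) received 4 daily cocaine injections, the same withdrawal and a final cocaine injection of 5 mg/kg, and expressed the preference. nCPPE rats (n = 3) had the same cocaine treatment and did not express it. The labels also call the CPPE animals dependent and the nCPPE animals non-dependent, and the series text mentions an extinction phase of 12 days. Every rat was placed in the apparatus for an 18 min preference test straight after its last injection, so all 3 groups share that handling. When the tissue was collected after the injection, and by which criterion CPPE and nCPPE rats were parted, was not found in the sources used here. As tissue the labels name the nucleus accumbens, while the extraction protocol also mentions the caudate putamen. Since other identifiers could not be paired with names, the tissue was not checked against its marker genes.

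Immediate early genes are transcribed within minutes of a strong stimulus without new protein synthesis, and their mRNAs decay quickly. In neurons, calcium entry and the cAMP and MAP kinase pathways act on the transcription factors CREB and SRF, which bind the CRE and the CArG box of these genes. In the striatum, dopamine and glutamate input both drive them, and acute cocaine is a textbook inducer of Fos in medium spiny neurons. They are widely read as a trace of recent activity, to which novelty, handling and injection also contribute.

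The libraries held 27724289 to 39067715 counts per rat, summed over 4 technical replicates, and each of the 9 genes had between 140 and 6300 counts in every rat. Saline 2 stood apart from the other libraries over much of the transcriptome. Its Pearson r with the others was 0.919 to 0.940 across genes, beside 0.982 to 0.993 between any pair of the other 8, and 4374 genes were more than 2-fold away from their mean in the other rats, beside 154 to 385 for the other libraries. Results that rest on Saline 2 are therefore also given without it. In bulk tissue, fewer cells of a type and less RNA per cell cannot be told apart.

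Promoter windows were available for 6 of the 9 genes (Fosb, Junb, Egr1, Egr2, Nr4a1 and Dusp1), from RefSeq on assembly GRCr8, each 300 bases long with 250 bases before the start site used by the table. The windows of 4 genes are shown because these genes varied together between rats (Egr2, Nr4a1 and Dusp1) or parted from the rest in Saline 2 (Junb). They are written 5′ to 3′ on the gene's strand, and capitals mark the core CRE motif TGACG on either strand, the palindromic CRE TGACGTCA that contains it, and the CArG box. Egr2 lies at chr20:21054392-21054691 on the minus strand, Dusp1 at chr10:17184603-17184902, Nr4a1 at chr7:134259888-134260187 and Junb at chr19:40080876-40081175, the last 3 on the plus strand.
Egr2: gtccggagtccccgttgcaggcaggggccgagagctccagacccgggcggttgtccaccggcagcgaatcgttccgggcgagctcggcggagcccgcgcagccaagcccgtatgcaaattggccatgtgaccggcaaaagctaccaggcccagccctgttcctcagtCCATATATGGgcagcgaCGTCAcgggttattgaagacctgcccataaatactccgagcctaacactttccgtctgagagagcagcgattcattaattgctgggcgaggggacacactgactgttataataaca
Dusp1: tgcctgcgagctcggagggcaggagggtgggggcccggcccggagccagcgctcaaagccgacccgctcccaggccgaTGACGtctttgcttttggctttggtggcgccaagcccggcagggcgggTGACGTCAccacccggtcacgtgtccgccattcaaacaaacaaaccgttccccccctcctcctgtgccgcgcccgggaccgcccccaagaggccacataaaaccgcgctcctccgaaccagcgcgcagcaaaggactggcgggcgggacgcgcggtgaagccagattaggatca
Nr4a1: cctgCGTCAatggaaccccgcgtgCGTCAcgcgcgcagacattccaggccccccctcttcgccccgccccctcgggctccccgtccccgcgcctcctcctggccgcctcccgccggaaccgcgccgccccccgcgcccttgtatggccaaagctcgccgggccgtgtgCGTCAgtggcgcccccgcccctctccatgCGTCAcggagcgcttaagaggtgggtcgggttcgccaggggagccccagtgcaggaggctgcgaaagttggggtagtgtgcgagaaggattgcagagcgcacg
Junb: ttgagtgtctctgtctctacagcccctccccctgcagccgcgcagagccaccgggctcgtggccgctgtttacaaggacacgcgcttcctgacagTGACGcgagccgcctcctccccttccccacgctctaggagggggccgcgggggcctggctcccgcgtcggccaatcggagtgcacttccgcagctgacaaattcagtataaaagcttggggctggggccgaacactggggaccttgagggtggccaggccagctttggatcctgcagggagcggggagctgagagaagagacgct

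The core CRE motif was found in 5 of the 6 windows, all but Fosb, and in 21.2% of the 33469 windows of the same length in the table. Nr4a1 held 4 copies, Dusp1 held 3 of which 2 form its palindromic CRE, Egr1 held 2, and Egr2 and Junb held 1 each. The palindromic CRE was present in Dusp1 only among the 6, and in 1.83% of all windows. A CArG box, the binding motif of SRF, was found in Egr1 (2 copies) and Egr2 (1 copy), and in 1.64% of all windows. In Egr1 and Egr2 alike, a CArG box began 83 bases before the start site and a core CRE motif 66 bases before it. The TATA motif TATAAA, read on both strands, was found in Junb and Fosb (14.2% of all windows), the EGR motif GCGNGGGCG on both strands in Nr4a1 (4.98%), and the AP-1 motif TGANTCA in none of the 6 (7.33%). These matches describe letters in these windows and no more.

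**Figure D1:**
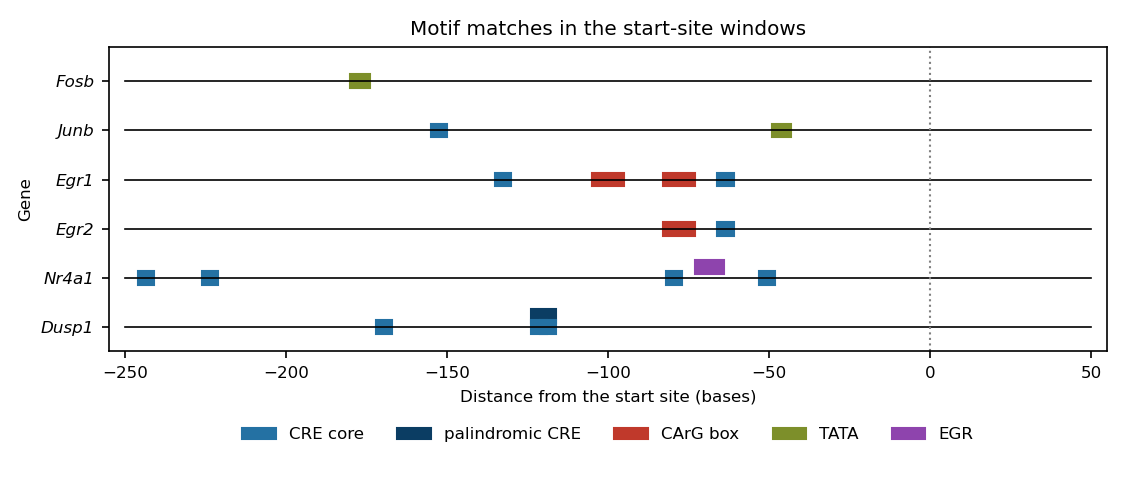
Motif matches in the start-site windows of 6 immediate early genes (rows), by distance from the start site in bases (dotted line at 0). Coloured blocks are matches to scale. Egr1 and Egr2 both carry a CArG box beginning 83 bases and a core CRE motif beginning 66 bases before the start site.

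Fos and Fosb encode subunits of AP-1, a dimer of a Fos and a Jun protein. Levels are given as CPM, the counts of a gene scaled to the same total in every library, which allow a gene to be compared between rats but not with another gene, since gene length is not taken into account. Fos (ENSRNOG00000008015) was at 26.3, 13.6 and 11.04 CPM in Saline rats 1, 2 and 3, at 10.7, 23.7 and 17.7 CPM in the CPPE rats and at 11.6, 12.5 and 25.2 CPM in the nCPPE rats. In each group 1 rat stood high, namely Saline 1, CPPE 2 and nCPPE 3, and the 3 groups overlapped. The counting error was small beside these gaps, with an exact Poisson 95% interval of 24.5 to 28.3 CPM for Fos in Saline 1 and 9.84 to 12.3 CPM in Saline 3. The mean of Fos over 3 rats was 17.0 ± 8.20 CPM (SD) for Saline, 17.3 ± 6.49 CPM for CPPE and 16.4 ± 7.60 CPM for nCPPE. Fosb (ENSRNOG00000046667), whose short splice form ΔFosB is known to build up in striatal neurons under repeated cocaine, was at 18.5, 9.47 and 9.85 CPM in Saline, 8.87, 18.4 and 10.2 CPM in CPPE and 8.90, 9.86 and 13.6 CPM in nCPPE rats. Counts per gene do not separate ΔFosB from full-length FosB. Saline 1 and CPPE 2 were almost level at the top for Fosb, and the lowest rat of every group was between 8.87 and 9.47 CPM.

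Junb and Jun encode the partners of the Fos proteins. Junb (ENSRNOG00000042838) was at 55.6, 78.1 and 34.0 CPM in Saline, 35.4, 60.3 and 50.3 CPM in CPPE and 36.3, 40.1 and 84.1 CPM in nCPPE rats. Here Saline 2, not Saline 1, was the highest of its group, and nCPPE 3 was the highest of all 9 rats. Jun (ENSRNOG00000026293) was the steadiest of the 9 genes, at 26.9, 20.5 and 21.97 CPM in Saline, 21.3, 23.5 and 21.7 CPM in CPPE and 17.9, 20.4 and 26.8 CPM in nCPPE rats. Its highest rat had 1.503 times the CPM of its lowest, and its coefficient of variation over 9 rats was 13.3%, beside 31.9% to 52.6% for the other 8 genes.

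Egr1 and Egr2 encode zinc finger transcription factors, Egr1 being linked to synaptic plasticity and memory. Egr1 (ENSRNOG00000019422) was at 125.5, 143.9 and 69.4 CPM in Saline, 80.5, 161.3 and 94.7 CPM in CPPE and 79.0, 80.2 and 141.4 CPM in nCPPE rats. As with Junb, Saline 2 was the highest Saline rat. Egr2 (ENSRNOG00000000640) was at 20.5, 7.72 and 5.05 CPM in Saline, 6.24, 14.1 and 9.10 CPM in CPPE and 5.96, 6.43 and 9.95 CPM in nCPPE rats. It had the widest range of the 9 genes, 4.05-fold from Saline 3 to Saline 1, both of them serum-injected animals.

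Nr4a1 (ENSRNOG00000007607) encodes the orphan nuclear receptor Nur77. It was at 95.2, 55.1 and 30.3 CPM in Saline, 35.8, 69.1 and 38.4 CPM in CPPE and 32.6, 46.5 and 57.1 CPM in nCPPE rats, so that the highest and the lowest of the 9 rats were again Saline animals. Arc (ENSRNOG00000043465), whose mRNA travels to active synapses and whose protein promotes removal of AMPA receptors, was at 157.0, 110.8 and 61.8 CPM in Saline, 78.5, 148.6 and 105.0 CPM in CPPE and 71.5, 73.6 and 141.6 CPM in nCPPE rats. Dusp1 (ENSRNOG00000003977) encodes a phosphatase that switches off MAP kinases and so limits the signal that induces these genes. It was at 43.1, 26.4 and 17.2 CPM in Saline, 15.9, 29.7 and 23.1 CPM in CPPE and 18.4, 20.2 and 32.3 CPM in nCPPE rats. For all 3 genes Saline 1, CPPE 2 and nCPPE 3 were the 3 highest rats.

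**Figure D2:**
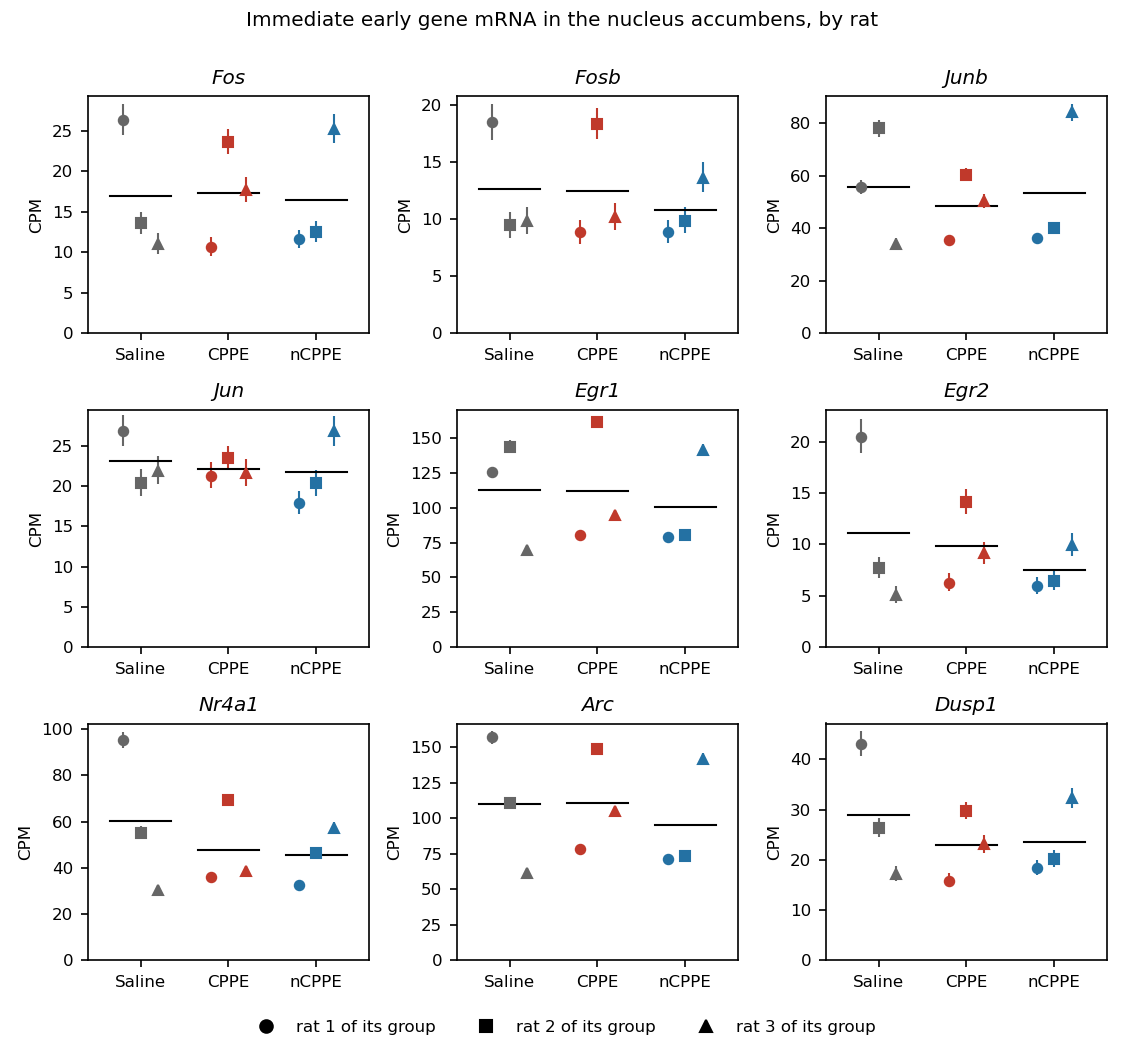
CPM of each immediate early gene (vertical axes, starting at 0) in every rat, by group. Circles, squares and triangles are rats 1, 2 and 3 of a group, thin bars are exact Poisson 95% intervals of the count and horizontal lines are group means. The groups overlap for every gene, and CPPE 2 and nCPPE 3 are the highest rats of their groups in all 9 panels.

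CPPE rats were first set against nCPPE rats, to ask whether animals that expressed the preference differed in these genes from animals with equal cocaine exposure that did not. None of the 9 genes passed edgeR's quasi-likelihood test at an adjusted p below 0.05, where 0 of all 15555 genes (0.00%) passed and 84 (0.540%) had an unadjusted p below 0.05. The 9 genes had 0 at an unadjusted p below 0.05. DESeq2 called 1 gene, and limma-voom, here and below run with a quality weight for each rat, called 0. Of the 9 genes, 7 had a higher fitted level in CPPE and 2 (Junb and Dusp1) in nCPPE rats, with a median log2 fold change of 0.08 beside -0.00106 over all genes tested. Of all genes tested, 49.6% had a higher fitted level in CPPE rats. The largest difference was that of Egr2, which averaged 9.82 ± 3.99 CPM over 3 CPPE and 7.45 ± 2.2 CPM over 3 nCPPE rats (SD), a log2 fold change of 0.40 ± 0.50 (SE). Arc was at 111 ± 35.4 CPM against 95.6 ± 39.9 CPM, a log2 fold change of 0.21 ± 0.39, and Fos differed by 0.08 ± 0.43. CPPE and nCPPE rats overlapped for all 9 genes, whereas 7.27% of all genes tested did not overlap in 1 direction or the other. The 95% interval excluded a 2-fold difference either way for 3 of the 9 genes (Jun, Egr1 and Dusp1) and for 76.7% of all genes tested. For Fos it ran from -0.90 to 1.047 on the log2 scale and for Egr2 from -0.75 to 1.55, so that a 2-fold difference in either gene lies within what these rats allow. Without CPPE 2 the value of Egr2 was 0.041, and the fitted difference turned negative for Fos (-0.22), Fosb (-0.18), Egr1 (-0.19), Nr4a1 (-0.28), Arc (-0.060) and Jun (-0.0073). Without nCPPE 3 it turned positive for Junb (0.35) and Dusp1 (0.25). The median over the 9 genes was -0.19 without CPPE 2 and -0.080 without nCPPE 1.

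CPPE rats were set against Saline rats to ask which transcripts differ after cocaine training and challenge in animals with the preference. No immediate early gene was higher beyond the spread between rats. edgeR called 0 of the 9 genes and 0 of 15555 (0.00%), with 139 genes (0.894%) and 0 of these 9 at an unadjusted p below 0.05. DESeq2 and limma-voom called 0 genes. The means of Fos given above, 17.3 and 17.0 CPM, were almost equal, and its log2 fold change was 0.00056 ± 0.43 (SE), with a 95% interval from -0.97 to 0.97. Positive fitted values were held by 48.1% of all genes tested, and by Fos alone among the 9. The other 8 genes had negative fitted values, with a median over the 9 of -0.09 beside -0.01 over all genes tested. The largest were those of Dusp1, at 22.9 ± 6.94 CPM against 28.9 ± 13.1 CPM (log2 fold change -0.37 ± 0.37), and of Nr4a1, at 47.8 ± 18.5 CPM against 60.2 ± 32.8 CPM (-0.36 ± 0.42). CPPE and Saline rats overlapped for all 9 genes (5.33% of all genes tested did not overlap). Differences of 2-fold lay outside the interval of Fos, Fosb, Jun, Egr1 and Arc, 5 of the 9 genes, and outside that of 66.6% of all genes tested.

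The same question was put to the animals without the preference, against the same 3 controls. All 9 genes had lower fitted levels in nCPPE rats, and none passed the test. Of all genes tested, 48.8% had higher fitted levels in nCPPE rats. The 9 genes varied together between rats, as described below, so their shared sign does not amount to 9 separate observations. edgeR called 0 of 15555 genes (0.00%), with 179 (1.15%) and 0 of these 9 at an unadjusted p below 0.05, while DESeq2 called 1 gene and limma-voom 0. For Egr2 the means were 7.45 ± 2.2 CPM (SD) over 3 nCPPE and 11.1 ± 8.24 CPM over 3 Saline animals, a log2 fold change of -0.60 ± 0.51 (SE) with a 95% interval from -1.75 to 0.55. Nr4a1 was at 45.4 ± 12.3 CPM against 60.2 ± 32.8 CPM (-0.44 ± 0.42), Dusp1 differed by -0.32 ± 0.37 and Fos by -0.07 ± 0.43. The median over the 9 genes was -0.23, beside -0.00716 over all genes tested. The groups overlapped for all 9 genes (4.24% of all genes tested did not overlap), and the interval excluded a 2-fold difference for Jun alone among the 9, beside 68.2% of all genes tested.

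With all 6 cocaine rats set against the 3 Saline rats, the 9 genes again had negative fitted values, between -0.40 for Egr2 and Nr4a1 and -0.04 for Fos, with a median of -0.15 beside -0.01 over all genes tested. Of all genes tested, 48.3% had positive fitted values. edgeR called 0 of the 9 and 0 of 15555 (0.00%), with 193 genes (1.24%) and 0 of these 9 at an unadjusted p below 0.05. DESeq2 called 1 gene and limma-voom 0. For Fos the mean over 6 cocaine animals was 16.9 ± 6.34 CPM (SD) and that over 3 Saline animals 17.0 ± 8.20 CPM, a log2 fold change of -0.04 ± 0.37 (SE) with a 95% interval from -0.88 to 0.80. Arc was at 103 ± 34.7 CPM against 110 ± 47.7 CPM, a log2 fold change of -0.13 ± 0.34. For 6 of the 9 genes, and 74.7% of all genes tested, the interval excluded a 2-fold difference, the exceptions among the 9 being Egr2, Nr4a1 and Dusp1. Cocaine and Saline rats overlapped for all 9 genes, where 1.04% of all genes tested did not overlap. These values reuse the rats of both pairwise comparisons with Saline and are not a further observation.

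The sign of the differences from Saline depended on which rats entered. Without Saline 1, 8 of the 9 genes had positive values for CPPE against Saline, with a median of 0.13, and 7 of the 9 for nCPPE against Saline (median 0.08) and for cocaine against Saline (median 0.09). Without CPPE 1, too, the median for CPPE against Saline turned positive (0.031), with Fos at 0.24, Arc at 0.16, Fosb at 0.14, Egr1 at 0.13 and Egr2 at 0.031. Without Saline 3, by contrast, all 9 were negative in each of these comparisons, and the median for cocaine against Saline was -0.42. Without Saline 2, the library that stood apart, 6 of 9 were negative for CPPE against Saline and 7 of 9 for nCPPE and for cocaine against Saline, and Junb and Egr1 turned positive in all 3. No gene of the 9 passed the threshold in any of these fits. An exact two-sided permutation test over rats, gene by gene, gave p between 0.5 and 1 for CPPE against nCPPE, between 0.6 and 1 for CPPE against Saline, between 0.5 and 1 for nCPPE against Saline and between 0.43 and 0.98 for cocaine against Saline. The smallest exact p that 3 against 3 rats allow is 0.1, and 0.0119 for 6 against 3.

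**Figure D3:**
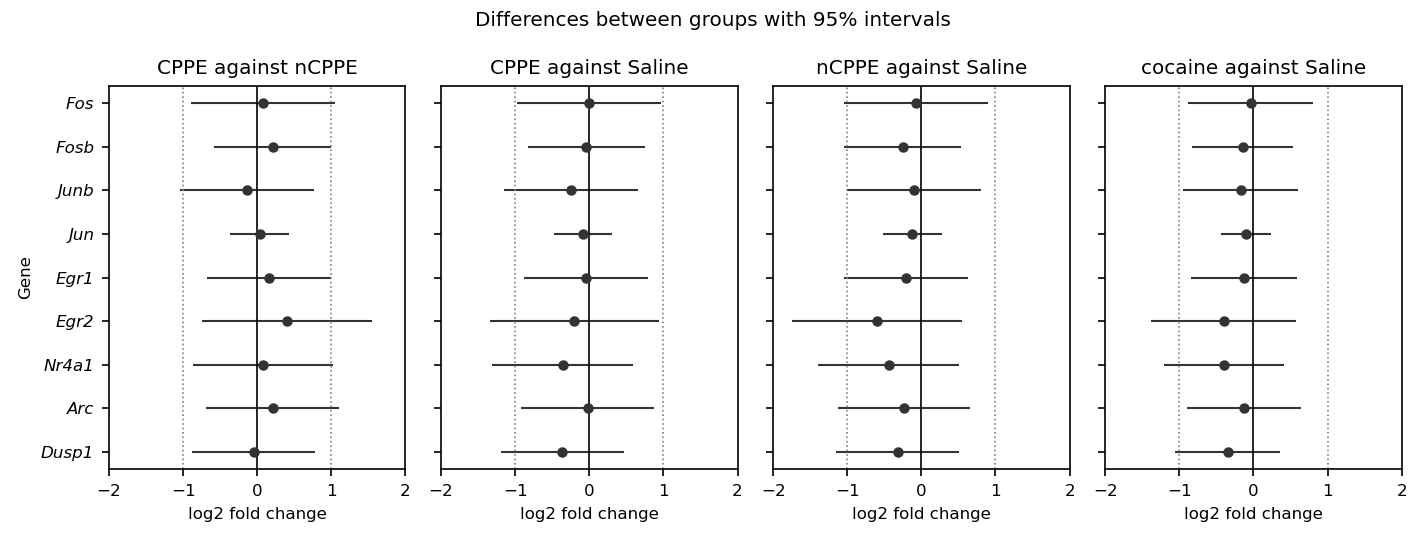
Log2 fold change of each immediate early gene (rows) in the 4 comparisons, with 95% intervals from the edgeR fit over 9 rats; dotted lines mark a 2-fold difference. Every interval includes 0, and Jun has the narrowest and Egr2 the widest interval in each panel.

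Between rats of the same group, 8 of the 9 genes varied more than most genes, and Jun did so only without Saline 2. The pooled within-group SD of log2 CPM had a median of 0.57 over the 9 genes and 0.31 over all 15555 genes tested. With all 9 rats Egr2 (0.71) lay above 89.95% of all genes, the other 7 above 75.5% to 85.4% and Jun (0.20) above 28.4%. Without Saline 2 the medians were 0.57 and 0.14. Egr2 then had an SD of 0.77, larger than 97.9% of all genes, Nr4a1 0.67 (96.9%), Fos 0.65 (96.7%), Arc 0.62 (96.3%) and Dusp1 0.57 (95.2%). Junb, Egr1 and Fosb lay above 93.0% to 94.2%, and Jun, at 0.21, lay above 69.8% of all genes. Among the 11271 genes that averaged 5 CPM or more, a class that contains all 9, the median SD without Saline 2 was 0.11. The 90th percentile of that class was 0.23, with Jun (0.21) just below it and the other 8 genes above it. Technical replicates of a rat had a median coefficient of variation of 5.91% over the 81 combinations of gene and rat, with a highest value of 25.1%. Over the 9 rats it was 31.9% to 52.6% for 8 of the 9 genes and 13.3% for Jun. For Jun, technical replicates of Saline 3 (15.3%) and CPPE 3 (12.8%) spread more than the 3 CPPE rats did (5.23%). A single technical replicate holds fewer counts than the sum of 4 behind a rat's value. Its counting error is therefore larger, and these spreads are not at equal depth.

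**Figure D4:**
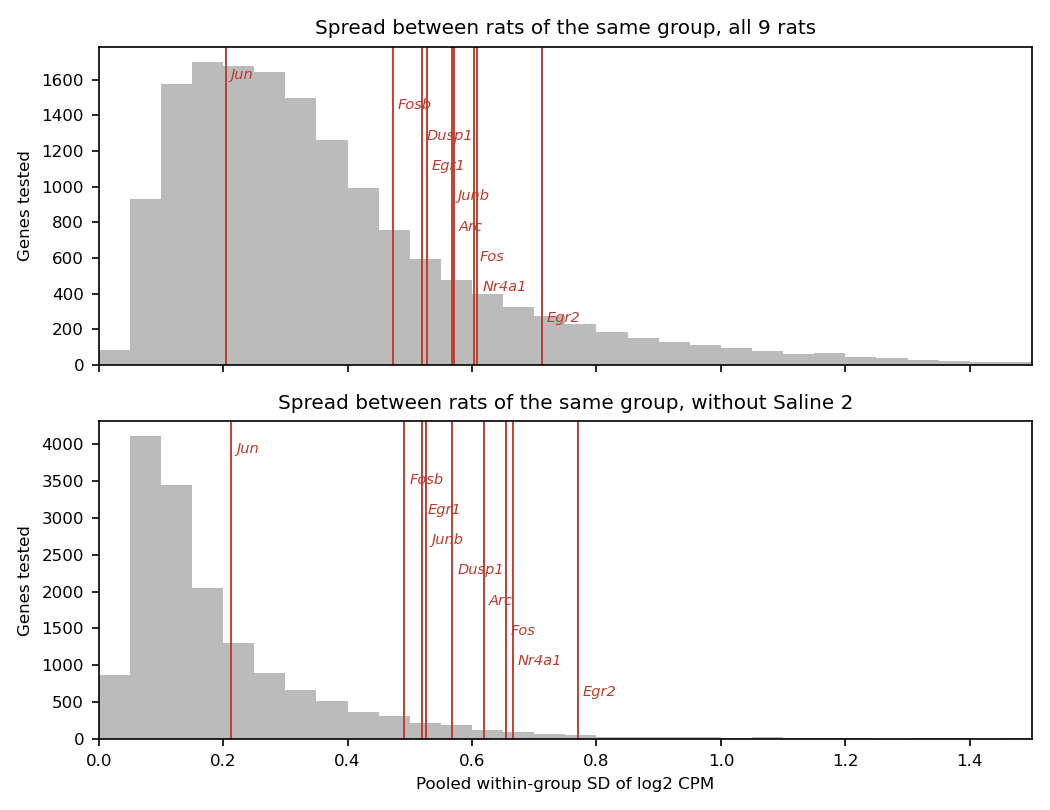
Number of tested genes (grey bars) by pooled within-group SD of log2 CPM, with all 9 rats (top) and without Saline 2 (bottom); red lines mark the immediate early genes, and a few genes above an SD of 1.5 are off the axis. Without Saline 2 the 9 genes keep a median of 0.57 while that of all genes falls from 0.31 to 0.14.

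Across the 9 rats these genes varied together, with Junb and Egr1 parting from the rest in Saline 1 and Saline 2. By CPM, CPPE 2 and nCPPE 3 were the highest and CPPE 1 and nCPPE 1 the lowest rats of their groups for all 9 genes. With TMM scaling the highest rats were the same, but CPPE 3 was the lowest CPPE rat for Jun and nCPPE 2 the lowest nCPPE rat for Egr1. By CPM, Saline 1 was the highest Saline rat for 7 of them, Junb and Egr1 being the exceptions. Saline 1, CPPE 2 and nCPPE 3 were the 3 highest of all rats for 7 of the 9 genes, a pattern chosen after the values were seen, and for 1.36% of all genes tested. On the log2 scale with TMM scaling, the mean over the 9 genes, each relative to its own mean over rats, was 0.65 in Saline 1, 0.47 in CPPE 2 and 0.41 in nCPPE 3. It was -0.50 in Saline 3, -0.43 in nCPPE 1, -0.37 in CPPE 1, -0.31 in nCPPE 2 and -0.09 in CPPE 3, with Saline 2 at 0.16. The highest and the lowest rat on this measure both belonged to the Saline group.

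**Figure D5:**
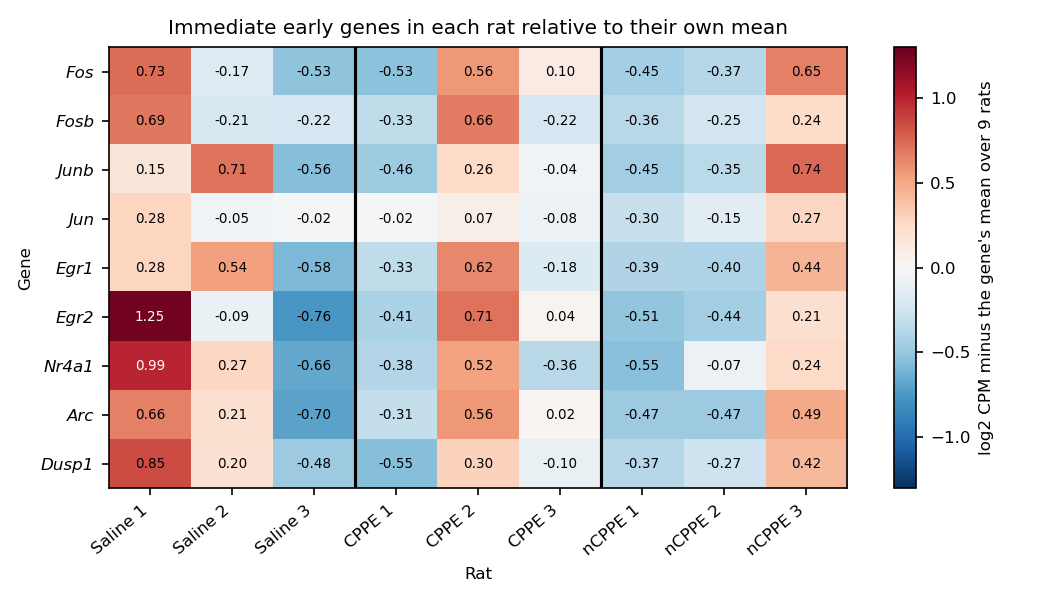
TMM-scaled log2 CPM of each immediate early gene (rows) in each rat (columns) minus the gene's mean over 9 rats; red is above and blue below that mean, and black lines part the groups. Saline 1, CPPE 2 and nCPPE 3 are above the mean for all 9 genes, and in Saline 2 Junb (0.71) and Egr1 (0.54) are the highest.

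Across the 9 rats, Pearson's r between 2 of these genes had a median of 0.82 over the 36 pairs and ran from 0.50 to 0.94, and Spearman's rho had a median of 0.82 with a range from 0.40 to 0.98. By exact two-sided permutation over the rats, with Benjamini-Hochberg adjustment over the 36 pairs, 31 pairs passed 0.05 by r and 28 by rho. These pairs come from 9 genes and are not independent. The share that would pass among pairs drawn from all genes was not computed, so these counts are a description only. Fos and Arc had the highest r, 0.94 (exact permutation p = 0.000821, adjusted 0.00342; rho 0.87), with Egr2 and Arc at r = 0.92 (exact permutation p = 2.205e-05, adjusted 0.000794). The highest rho, 0.98, was shared by Egr2 with Arc and Fos with Dusp1. The other end was held by Junb with Fosb, at r = 0.50 (exact permutation p = 0.158, adjusted 0.158; rho 0.73), and by Junb with Jun, at a rho of 0.40. With the 2 rats farthest from the median of the gene on the x axis left out, r ran from 0.38 to 0.97 with a median of 0.82. For Fos with Arc it was then 0.90, and for Egr2 with Arc 0.96. The pairs that dropped below 0.50 all included Jun. Subtracting the group means left the median at 0.84 (0.50 to 0.98), and leaving out Saline 2 gave 0.89 (0.70 to 0.97).

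Junb and Egr1 parted from the other genes in Saline 2 and, in the opposite direction, in Saline 1. With 1 as the highest of all 9 rats, Junb and Egr1 ranked 2 in Saline 2. Nr4a1, Arc and Dusp1 ranked 4 there, Fos and Egr2 ranked 5 and Fosb and Jun 7. In Saline 1, Junb and Egr1 ranked 4, whereas Fos, Fosb, Jun, Egr2, Nr4a1, Arc and Dusp1 ranked 1. The ratio of Junb to Fosb counts was 8.25 in Saline 2 and 3.01 (Saline 1) to 6.16 (nCPPE 3) in the other 8 rats. The ratio of Egr1 to Egr2 counts was 18.6 in Saline 2, beside 14.2 at most elsewhere, and its lowest value was 6.13 in Saline 1. These ratios carry the lengths of both transcripts, so that only their change between rats can be read. The ratio of Fos to Dusp1 counts varied less, from 0.51 in Saline 2 to 0.80 in CPPE 2. The part that the other differences of the Saline 2 library play in these values was not tested.

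The rat-to-rat pattern was set beside 3 measures of the libraries. CPPE 2 had the most counts of all rats, 39067715, but Saline 1 and nCPPE 3, with 28933896 and 31152594, lay within the range of the others. Pearson's r of the 9 genes with total counts ran from -0.09 to 0.37 (Spearman -0.23 to 0.28), with the number of genes detected from -0.43 to 0.28 (-0.03 to 0.23) and with the share of the 10 most abundant genes from -0.65 to 0.05 (-0.65 to 0.07). The smallest exact permutation p of these 27 relations was 0.0544 (Junb with the share of the 10 most abundant genes) and the smallest adjusted value 0.937. Without the 2 rats farthest from the median of the library measure, r stayed between -0.39 and 0.24.

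Each of the 9 genes was also compared with the mean of the other 8 across rats, taking the lower of r over all rats and r without Saline 2. This likeness was 0.98 for Arc, 0.96 for Dusp1, 0.93 for Fos, 0.92 for Nr4a1 and 0.91 for Egr2, then 0.87 for both Egr1 and Fosb, 0.78 for Jun and 0.75 for Junb. Of 13758 other genes that averaged 1 CPM or more, 3 reached 0.9 and 148 (1.08%) reached 0.7 with the mean of all 9. The closest was ENSRNOG00000004100 (r = 0.93 over 9 rats and 0.93 without Saline 2), at 4.08, 3.19 and 2.09 CPM in Saline, 2.48, 4.20 and 3.54 CPM in CPPE and 2.19, 2.16 and 4.75 CPM in nCPPE rats. The next, ENSRNOG00000001189 (0.91 and 0.97), was at 21.4, 12.0 and 11.4 CPM in Saline, 11.5, 18.1 and 13.6 CPM in CPPE and 12.0, 12.1 and 21.8 CPM in nCPPE rats. Both were highest in CPPE 2, nCPPE 3 and Saline 1, and their identifiers could not be paired with names. These correlations share the same libraries and scaling and are given as a description.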

How the data were processed

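Messenger RNA of 9 rats was sequenced as 36 libraries, 4 technical replicates per rat. Per the labels' protocols, 300 ng of RNA went through poly(A) selection and the TruSeq Stranded mRNA kit. The submitters' processing notes list bcl2fastq 2.18.0.12 along with STAR and HTSeq 0.5.3. Genome build, annotation and the counter's strand option were not found in these sources, so how reads of overlapping genes were counted is not known. The deposited files hold raw counts per Ensembl gene, as whole numbers.

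Counts were summed over technical replicates per rat, which agree within sampling noise over all genes (chi-square per degree of freedom 1.00 to 1.02 in every rat, over genes with at least 40 counts). CPM was the count scaled by the total of its library. Groups came from the sample descriptions. Tests used the quasi-likelihood method of edgeR 4.0.16 under R 4.3.3 (filterByExpr, TMM, glmQLFit, glmQLFTest; group as the sole factor over 9 rats) and adjusted by Benjamini-Hochberg over 15555 genes. Standard errors and 95% intervals came from the same fits, whose shared spread includes Saline 2. Correlations and SDs used log2 CPM with a prior count of 2. Intervals of counts cover counting error only. The procedure was run on simulated data that held no divergent library. How often it recovers 2-fold differences at the spread of these rats is not given here. Alternatives were DESeq2 1.42.0, limma-voom with a quality weight for each rat (limma 3.58.1), other scalings and filters, single technical replicates and leaving out each rat. The labels name each rat as a separate animal.

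Both the genes and the lists were chosen with earlier results of these data known. The 9 genes are all named. Of the other genes, those closest in pattern were to be named, the first 2 where identifiers have no symbol. A list of other activity-regulated genes and lists of cell type markers could not be used, since 0 identifiers of the files could be paired with symbols.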

Additional observations from a re-analysis of the deposited data

How the results depend on the processing

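In 20 alternatives, 1 of them (library totals without TMM) chosen after seeing the data, 0 of the 9 genes passed the threshold in any comparison. The lowest adjusted p of any of them was 0.464, shared by Egr2, Nr4a1 and Dusp1 in cocaine against Saline rats without Saline 3. Over all genes, DESeq2 called 1 gene for CPPE against nCPPE, 1 for nCPPE against Saline and 1 for cocaine against Saline, where edgeR called 0. The cause was not tested. In the order of comparisons given above, edgeR had 84, 139, 179 and 193 genes at an unadjusted p below 0.05 with all 9 rats. Without Saline 2 these counts were 556, 929, 964 and 1055, with none of the 9 genes among them. Without Saline 3 they were 89, 832, 552 and 1324, and without Saline 1 they were 82, 488, 377 and 899. Without Saline 3, 1 of the 9 genes was among those for cocaine against Saline. By limma-voom, 1 of the 9 had an unadjusted p below 0.05 for nCPPE against Saline and 1 for cocaine against Saline. No alternative had more than 1 of the 9 below that value in any comparison. The signs of the small differences were unstable, since of 36 values (9 genes in 4 comparisons) 35 changed sign when some rat was left out, the exception being Egr2 for CPPE against nCPPE (0.041 to 0.67), and 13 did so in another alternative. With 1 rat left out in turn, the lowest and highest log2 fold changes for CPPE against nCPPE were Fos -0.22 to 0.52, Fosb -0.18 to 0.41, Junb -0.35 to 0.35, Jun -0.080 to 0.22, Egr1 -0.19 to 0.50, Nr4a1 -0.28 to 0.28, Arc -0.060 to 0.61 and Dusp1 -0.28 to 0.25. For CPPE against Saline they were Fos -0.29 to 0.46, Fosb -0.43 to 0.34, Junb -0.51 to 0.11, Jun -0.15 to 0.035, Egr1 -0.40 to 0.19, Egr2 -0.56 to 0.58, Nr4a1 -0.72 to 0.13, Arc -0.31 to 0.32 and Dusp1 -0.64 to 0.033. For nCPPE against Saline they were Fos -0.52 to 0.38, Fosb -0.46 to 0.13, Junb -0.59 to 0.24, Jun -0.30 to 0.00065, Egr1 -0.54 to 0.028, Egr2 -0.95 to 0.18, Nr4a1 -0.77 to 0.045, Arc -0.63 to 0.11 and Dusp1 -0.61 to 0.077. For cocaine against Saline they were Fos -0.28 to 0.42, Fosb -0.34 to 0.23, Junb -0.44 to 0.18, Jun -0.19 to 0.018, Egr1 -0.39 to 0.11, Egr2 -0.75 to 0.38, Nr4a1 -0.73 to 0.085, Arc -0.42 to 0.21 and Dusp1 -0.62 to 0.055. For CPPE against Saline, Fos was -0.0011 with DESeq2 size factors, -0.0015 by DESeq2 and -0.24 by limma-voom, and Arc was 0.011 without TMM. By limma-voom, Junb was 0.078 and Dusp1 0.018 for CPPE against nCPPE. The rat number as a block (replicate block) put Fos at -0.022 for CPPE against Saline and changed no call. The labels do not say whether rats of the same number belong together, and the following values cannot decide it. Deviations from the group mean cancel out within a group, and those of the Saline rats include the divergent Saline 2. Of 9 same-numbered pairs, 2 had deviations from the group means that correlated above 0.1 (range -0.45 to 0.26). Of 9 rats, 2 correlated best with a rat of their own number. With a single technical replicate, values for CPPE against nCPPE were -0.055 (Fos), -0.044 (Jun) and 0.076 (Dusp1) in a, -0.022 (Nr4a1) in b and -0.0069 (Fosb) in c. For CPPE against Saline they were -0.049 (Fos) and 0.20 (Fosb) in a, -0.0094 (Fos) in b, -0.059 (Fos) and 0.019 (Egr1) in c, and 0.018 (Jun), 0.010 (Egr1) and 0.071 (Arc) in d. Fos was 0.0067 in a and 0.087 in d for nCPPE against Saline, and 0.11 in d for cocaine against Saline. The intervals included a 2-fold difference for 4 to 8 of the 9 genes in the comparisons of 3 with 3 rats, at 140 counts or more per gene and rat, and what sets their width was not tested.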

Other observations

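For these genes a small p between the technical replicates of a rat came up more often than over all genes. Of 81 combinations of gene and rat, 12 (14.8%) had a chi-square p below 0.05 between the 4 technical replicates, beside 4.91% to 5.38% of all genes in the 9 rats. The combinations are not independent, since they share libraries. The share over all genes covers every gene with at least 40 counts, and genes of like abundance were not set apart. After Benjamini-Hochberg adjustment over the 81, 1 remained, Nr4a1 in CPPE 2, which ran from 64.6 to 78.7 CPM between technical replicates (chi-square p = 0.000453, adjusted 0.0367). The next was Dusp1 in CPPE 1, from 11.7 to 19.0 CPM (adjusted 0.0861).

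Over the 6 cocaine rats, no rat passed Dixon's 95% criterion for 6 values in any of the 9 genes. That criterion divides the gap to the next rat by the whole range. CPPE 2 and nCPPE 3 stood next to each other at the top for all 9 genes, so each hides the other and the criterion cannot judge them. For Arc the gap was 0.09, at 148.6 CPM in CPPE 2, 141.6 CPM in nCPPE 3 and 105.0 CPM in CPPE 3. The largest gap was that of CPPE 2 in Egr2, 0.51 of the whole range, followed by CPPE 2 in Fosb (0.50) and nCPPE 3 in Junb (0.49).

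The rats with high immediate early genes were also compared over the whole transcriptome. Across the 15555 genes tested, deviations from the group means correlated at r = 0.36 between CPPE 2 and nCPPE 3, the highest of the 27 pairs of rats from different groups. It was 0.07 between Saline 1 and CPPE 2 and 0.08 between Saline 1 and nCPPE 3, where the deviations of Saline 1 are from a mean that includes the divergent Saline 2. CPPE 1 with nCPPE 2 had 0.29 and CPPE 3 with nCPPE 2 had 0.27, while CPPE 2 with nCPPE 2 had -0.45, the lowest. Deviations from a group mean cancel out within the group, so the r of 1 pair constrains those of the others. These are correlations across genes, which are not independent replicates.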
